A study of Mus musculus with 60 samples.

Results

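The 35 genes described here make the mouse machinery of homologous recombination and Fanconi anaemia repair, and the rule that picks them is a list of symbols and uses no measured value. All 35 were found among the 56980 genes counted, and all 35 had enough reads to be tested in both experiments. They fall into the BRCA mediators (Brca1, Bard1, Palb2, Brca2), the paralogue family (Rad51b, Rad51c, Rad51d, Xrcc2, Xrcc3), Rad54l, Rad54b and Rad52, the Fanconi core with its ubiquitin-conjugating enzyme (Fanca, Fancb, Fancc, Fance, Fancf, Fancg, Fancl, Fancm, Ube2t), the ID2 complex and what acts with it (Fancd2, Fanci, Fan1, Brip1), end resection (Mre11a, Rad50, Nbn, Rbbp8, Dna2), junction resolution (Blm, Mus81, Eme1, Gen1) and the end-joining polymerase Polq.

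Polyadenylated RNA was measured in 60 libraries of cultured mouse fibroblasts, 20 groups of 3 libraries, kept at 3% oxygen for no more than 3 passages. Ercc1 mutant cells, called D/KO, carry a truncated allele over a null allele of Ercc1, whose product pairs with XPF to cut DNA in nucleotide excision and crosslink repair. In the reprogramming experiment (36 libraries, 12 groups), tail tip fibroblasts of 4FJ_ERCC1_(d/-) mice (male, 8 weeks) and of the 4FJ_(+/-)_OCT4-GFP line (female, 22 weeks), called WT, were given doxycycline at 2 µg/ml for 0, 2 or 4 days, without or with VC, which is ascorbic acid at 50 µg/ml plus CHIR99021 at 3 µM. Per the study's methods, doxycycline acts on a Col1a1-tetO-OKSM cassette of the reprogramming factors Oct4, Klf4, Sox2 and c-Myc through the ROSA26-M2-rtTA activator in the D/KO line. The activator of the OCT4-GFP line is not given in the sources used here. By the labels, genotype, sex, age and the reporter differ together between the lines and cannot be told apart. The methods also list an Ercc1 wild-type line with the cassette, of the same sex and age as the D/KO line, but no label here names it, and the labels were followed. In the inhibitor experiment (24 libraries, 8 groups), D/KO fibroblasts without the cassette (ERCC1_(d/-), female, 4 weeks) were left as controls or given Repsox (0.1 µM), Vactosertib (0.1 µM), DMH-1 (1 µM) or A83-01 (1 µM) for 3 days, and ERCC1_(+/+)_WT cells (female, 14 weeks) from tail tip and from skin served as untreated controls. Repsox and A83-01 inhibit ALK5, the type I receptor of TGFb, and DMH-1 inhibits ALK2, a type I receptor of bone morphogenetic proteins. The study describes Vactosertib as acting on both receptors. A further 3 libraries of the 4FJ_(+/-)_OCT4-GFP line (22 weeks) are labelled TGFB. The untreated libraries of that line are in the other table, which was scaled separately, so the TGFB libraries entered no test. Since nothing says that the 3 libraries of a group came from separate animals, p-values measure only the spread between these libraries, which may be technical.

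Homologous recombination copies a broken DNA end from the sister chromatid. The MRE11-RAD50-NBN complex with CtIP (Rbbp8) and DNA2 trims the end, BRCA1-BARD1, PALB2 and BRCA2 act on the single strand, and RAD54 proteins help it to pair with the sister. The Fanconi pathway opens crosslinks between strands: the core complex with UBE2T attaches ubiquitin to FANCD2 and FANCI, which bring in nucleases, ERCC1-XPF among them. Sister chromatids exist only after replication, and many of these genes are transcribed more in cycling cells.

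Promoters were looked at because many cell-cycle genes carry E2F sites. In the RefSeq promoter table of build GRCm38.p6, whose coordinates differ from the GRCm39 of the count files, 28 of the 35 genes had an entry. Nbn, Rad51d, Rbbp8, Rad54b, Rad50, Xrcc2 and Fancd2 had none. The 250 bases before each start were searched on both strands for E2F (TTTCGCGC, TTTGGCGC, TTTCCCGC or TTTGCCGC), the CHR element (TTTGAA or TTCGAA), the CCAAT box (CCAAT) and the GC box (GGGCGG) and E2F and GC box letters can share bases. E2F letters stood in 3 of 28 genes (10.7%, against 2.16% of all genes in the table), CCAAT in 14 of 28 (50%, against 37.5%), the GC box in 15 of 28 (53.6%, against 35.4%) and CHR in 2 of 28 (7.14%, against 19.6%). The promoters of the 3 genes with E2F letters are shown with that of Fancf, the gene that moved against most others, with E2F and CCAAT letters in capitals.
Brca2, chr5:150522371-150522620, plus strand: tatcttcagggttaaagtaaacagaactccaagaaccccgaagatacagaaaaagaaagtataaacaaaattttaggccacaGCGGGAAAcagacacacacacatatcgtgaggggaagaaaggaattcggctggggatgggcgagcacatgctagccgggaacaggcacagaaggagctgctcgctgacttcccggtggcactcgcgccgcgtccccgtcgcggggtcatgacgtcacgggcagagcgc
Bard1, chr1:71102973-71103222, minus strand: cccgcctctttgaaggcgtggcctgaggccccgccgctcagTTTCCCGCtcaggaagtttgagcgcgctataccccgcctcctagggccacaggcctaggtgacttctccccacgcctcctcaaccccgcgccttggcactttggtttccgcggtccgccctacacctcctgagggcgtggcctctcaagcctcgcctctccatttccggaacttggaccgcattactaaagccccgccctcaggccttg
Fancg, chr4:43010302-43010551, minus strand: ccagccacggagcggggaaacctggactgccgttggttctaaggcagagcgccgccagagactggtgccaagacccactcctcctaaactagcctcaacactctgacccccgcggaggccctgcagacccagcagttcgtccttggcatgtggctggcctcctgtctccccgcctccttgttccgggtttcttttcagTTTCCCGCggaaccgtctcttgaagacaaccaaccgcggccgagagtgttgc
Fancf, chr7:51862268-51862517, minus strand: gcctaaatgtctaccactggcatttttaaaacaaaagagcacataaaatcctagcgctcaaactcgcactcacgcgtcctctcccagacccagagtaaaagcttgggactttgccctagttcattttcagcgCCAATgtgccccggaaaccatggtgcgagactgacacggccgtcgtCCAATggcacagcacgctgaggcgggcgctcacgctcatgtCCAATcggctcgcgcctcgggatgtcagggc
The E2F letters began 168 bases before the start in Brca2, 209 in Bard1 and 52 in Fancg, and the CCAAT letters of Fancf began 118, 72 and 31 bases before it. A match of letters is no evidence that a factor binds there.

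Libraries held 16538374 to 18484951 counted fragments in the reprogramming experiment and 17102639 to 30599138 in the inhibitor experiment. Mean correlation with the rest of the group was lowest in replicates 1 and 2 of WT skin (0.928 and 0.960) and replicate 2 of Repsox (0.962). Levels are given as CPM, counts scaled to library totals after each total was multiplied by its TMM scaling factor. Ercc1 read 11.9, 11.9 and 18.6 CPM in D/KO day 0 and 21.8, 21.9 and 18 CPM in WT day 0. The log2 difference was -0.54 ± 0.16 (edgeR, adjusted p = 0.00833). But it read 20.6, 20.3 and 20.9 CPM in D/KO inhibitor controls and 19.2, 13.3 and 21.7 CPM in WT tail. That difference was 0.21 ± 0.16 (edgeR, adjusted p = 0.317). Counts per gene do not separate the alleles, so they do not check the label. All 9 fibroblast markers were detected in every group. Their summed level ran from 24520 to 243800 CPM over the 36 reprogramming libraries and was lowest in D/KO day 4 plus VC. By their mean levels the collagen genes carry most of this sum, and members went both ways: from day 0 plus VC to day 4 plus VC, 8 fell and Thy1 rose (0.79, log2) in D/KO, and 6 fell while Dcn (1.01) and Thy1 (0.82) rose in WT. The 9 keratinocyte markers summed to 8.56 to 14.2 CPM in D/KO day 0 plus VC and 450.3 to 572.3 CPM in D/KO day 4 plus VC, with 4 and 1 of them at 0 counts in these groups. Krt14 and Dsp had the highest means there (367.2 and 95.4 CPM), and Krt10 fell (-0.99, log2). By day 4 Krt14 and Dsp also rose in D/KO without VC (8.94 and 3.85) and in WT with VC (7.86 and 0.73). The 5 endothelial markers summed to 663.9 to 723.9 CPM in D/KO day 0 against 14.6 to 17.4 CPM in WT day 0. From day 0 plus VC to day 4 plus VC they went from 228.2 to 267.5 CPM up to 561.7 to 791.8 CPM in D/KO, and from 4.79 to 7.08 CPM up to 98.1 to 116.1 CPM in WT. Members went both ways here too: in D/KO Tek, Tie1 and Pecam1 rose (3.65, 2.29 and 1.76, log2) and Cdh5 fell (-0.55). The WT rise was that of Tek (mean 5.07 to 106.4 CPM), while Pecam1 fell. Means of Pecam1, Cdh5, Kdr and Tie1 there stayed at or below 0.502 CPM. Without VC the sum went the other way in D/KO, to 358.4 to 410.8 CPM at day 4. In that comparison Tek rose (1.91) while Cdh5, Kdr, Pecam1 and Tie1 fell. Immune, melanocyte and skeletal muscle markers summed to at most 35.2, 4.89 and 34.4 CPM in any reprogramming library. What these cell type markers contribute to the results was not tested.

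Most of the genes were weakly expressed. Per kilobase of exon, mean levels in D/KO day 0 ran from 0.0525 CPM per kb for Palb2 to 8.63 ± 2.88 (SD, n = 3) CPM per kb for Fancf. Fance (5.57 ± 1.95) and Rad50 (5.55 ± 1.15) came next and lay within their spread of each other, and Polq (0.106), Rad54b (0.117) and Dna2 (0.173) stood near the bottom. In WT day 0 Fancf was highest (9.88 ± 0.96), followed by Nbn (6.58 ± 0.81) and Rad50 (6.43 ± 0.07), whose difference was within the spread of Nbn, and Polq was lowest (0.0872 CPM per kb), next to Rad54b (0.0932) and Brip1 (0.0969). Fancf overlaps Gas2 on the other strand, which held 8.73 times its counts over the reprogramming libraries. The strand setting of the counting is not given, so the rank of Fancf is uncertain. D/KO day 4 plus VC was the group with the highest mean level for 18 of the 35 genes, and WT day 4 plus VC for 6.

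**Figure D1:**
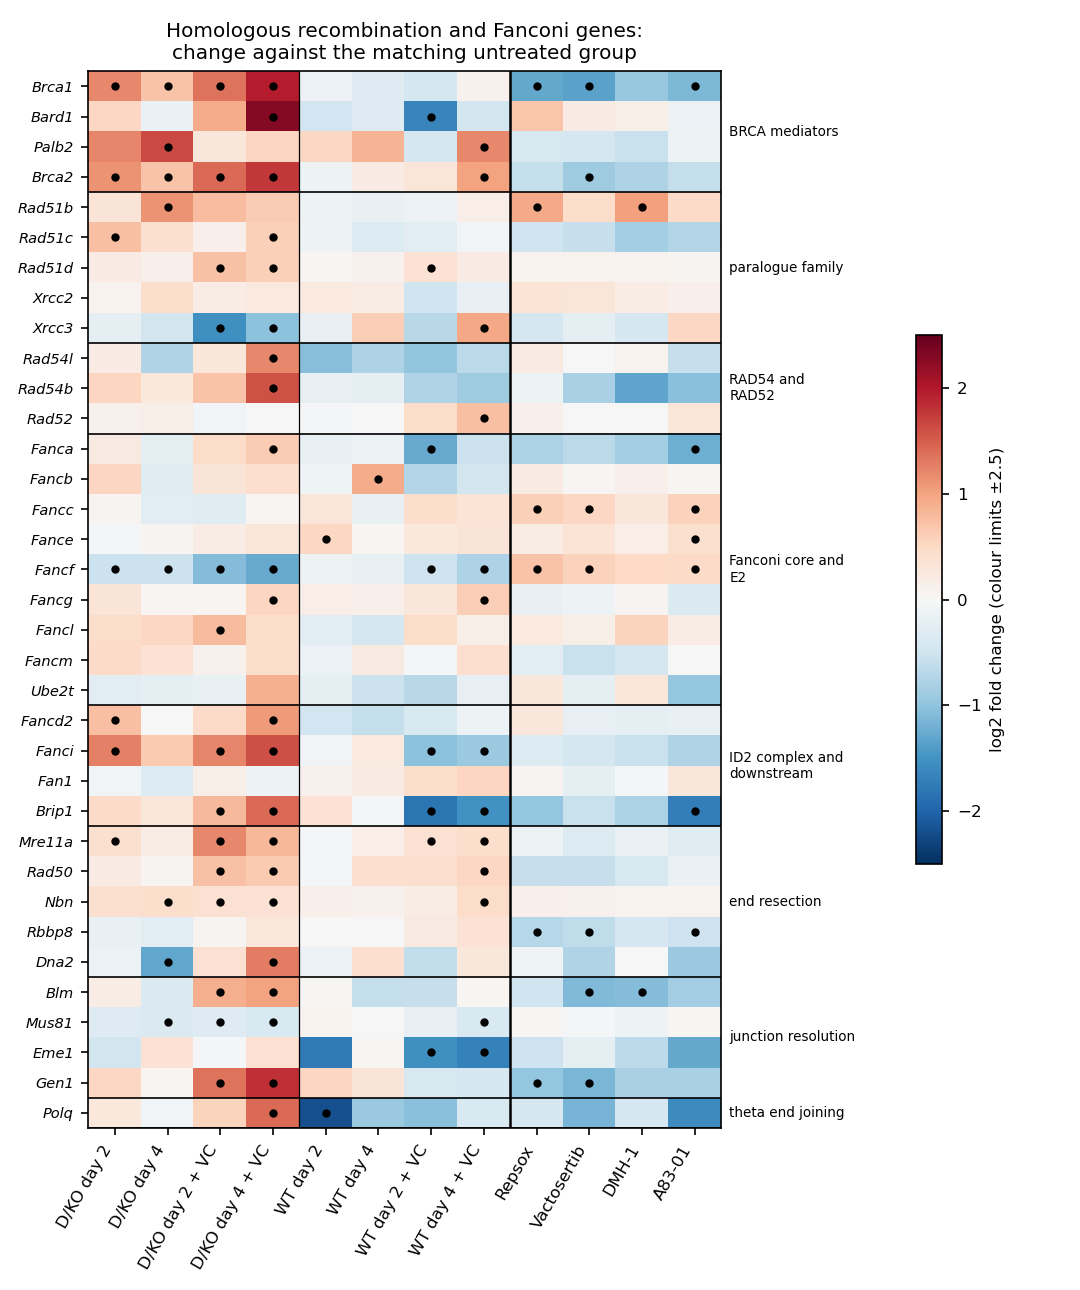
Log2 fold change of the 35 genes (rows, by role) against the matching untreated group, in 8 reprogramming and 4 inhibitor comparisons (columns). Black dots mark adjusted p under 0.05. The column of D/KO day 4 plus VC holds 22 dots and that of WT day 4 holds 1.

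To ask how induction of the factors changed repair transcripts, each day was compared with day 0 of the same line and the same VC state. A gene was called when its adjusted p was under 0.05, ± after a fold change is a standard error, and changes are log2 fold changes from here on. In D/KO, 4 days with VC raised 19 of the 35 genes and lowered 3, where 27.9% of all 15832 genes tested rose and 26.2% fell. The median change of the 35 was 0.604, against 0.013 for all genes. Without replicate 1 of D/KO day 4 plus VC, the genes called higher numbered 12. After 2 days with VC, 11 rose and 3 fell (23.8% and 23.6% of all genes). Without VC the risers were near the background share and the fallers below it: 6 rose and 1 fell at day 2 (14.3% and 13.2%), and 5 rose and 3 fell at day 4 (18.3% and 18.7%), and 3 were higher without replicate 1 of day 0 or replicate 3 of day 4. The single fall at day 2, of Fancf, was lost without replicate 1 or 2 of day 0 or any replicate of day 2, and the 3 falls at day 4 numbered 1 without any single replicate of day 0 and 0 without replicate 1 of day 4.

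WT cells gave fewer and mixed calls. At day 2 Fance rose and Polq fell (6.26% and 4.3% of all genes). At day 4 Fancb rose and none fell (11.7% and 12.8%), with 3 higher and 1 lower at an unadjusted p under 0.05 in edgeR, and 1 and 0 called by DESeq2. Each of these 3 calls was lost when a single library was left out: Polq without replicate 3 of day 0 (-1.78, adjusted p = 0.113) or replicate 1 of day 2 (-1.79, adjusted p = 0.0642), and Fance and Fancb in 4 and 5 of 6 such fits. Polq read 0.773, 0.483 and 1.28 CPM in WT day 0 and 0.0539, 0.206 and 0.275 CPM at day 2, from counts of 1, 4 and 5 at the latter. With VC, Rad51d and Mre11a rose and 6 genes fell at day 2 (13.8% and 13.7%) and 8 rose and 5 fell at day 4 (22.7% and 22% of all genes). The 2 risers at day 2 numbered 1 without replicate 1 of day 0 plus VC or replicate 2 of day 2 plus VC, and 0 without replicate 3 of the latter.

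Cell-cycle genes moved in the same columns. Of 38 S phase and replication genes, 30 rose and 2 fell in D/KO day 4 plus VC, and 3 rose and 15 fell in WT day 4 plus VC. All 26 G2 and mitosis genes rose in the former (median 1.36), and 21 fell and none rose in the latter (median -0.993, edgeR unadjusted p under 0.05 in 22). Their summed level was 337.3 to 357.0 CPM in D/KO day 0 plus VC and 833.3 to 1027 CPM in D/KO day 4 plus VC, against 309.6 to 373.1 and 165.5 to 182.7 CPM in WT. The WT direction turns with the baseline, since WT day 0 without VC summed to 96.4 to 107.5 CPM. Against that group 16 G2 genes rose and none fell in WT day 4 plus VC (median 0.683, edgeR unadjusted p under 0.05 in 20, all of them higher), and 23 S phase genes rose and none fell (26 higher and 2 lower unadjusted). In D/KO day 4 plus VC all 26 G2 genes and 31 S phase genes also rose against day 0 without VC. Their part in the changes of the repair genes was not tested.

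Among the BRCA mediators, Brca1, Bard1 and Brca2 rose in D/KO day 4 plus VC. Brca1 (ENSMUSG00000017146, GRCm39 chr11:101379590-101442781, minus strand), a ubiquitin ligase subunit that promotes recombination at broken ends, read 4.08, 2.86 and 3.51 CPM in D/KO day 0 plus VC, 10.0, 7.46 and 9.40 CPM at day 2 and 14.7, 13.0 and 13.2 CPM at day 4. The 3 groups did not overlap, and the change at day 4 was 1.96 ± 0.23 (adjusted p = 3.74e-09). Brca1 was also called higher without VC at day 2 (1.21 ± 0.24, adjusted p = 0.00014) and at day 4 (0.70 ± 0.24, adjusted p = 0.0195), the latter lost without replicate 1 or 3 of day 0 or replicate 3 of day 4 (adjusted p = 0.09, 0.0738 and 0.0917). In WT it stood at 4.11, 3.93 and 5.64 CPM in day 0 plus VC and 6.92, 4.12 and 3.71 CPM at day 4 (0.11 ± 0.23, adjusted p = 0.742), so these groups overlapped. Bard1 (ENSMUSG00000026196, GRCm39 chr1:71066657-71142305, minus strand), the partner of BRCA1, went from 1.17, 1.43 and 0.702 CPM to 6.13, 4.68 and 5.42 CPM in D/KO day 4 plus VC (2.30 ± 0.41, adjusted p = 1.3e-05), the largest rise of the 35 in that comparison. In WT day 2 plus VC it fell (-1.66 ± 0.47, adjusted p = 0.00695), a call lost without replicate 3 of that group (-1.32, adjusted p = 0.0575).

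Brca2 (ENSMUSG00000041147, GRCm39 chr5:150446095-150493794, plus strand), which acts on single-stranded DNA, rose in both lines. In D/KO it went from 4.21, 4.22 and 3.30 CPM in day 0 plus VC to 17.8, 10.7 and 11.3 CPM at day 4 (1.76 ± 0.26, adjusted p = 6.24e-07). In WT it went from 3.85, 6.27 and 5.91 CPM to 11.2, 10.2 and 10.8 CPM (1.00 ± 0.26, adjusted p = 0.00157). Neither pair of groups overlapped. Its opposite-strand neighbour N4bp2l1, at a mean of 1.2 CPM over the libraries, fell in D/KO. Palb2, the bridge between BRCA1 and BRCA2, was called at D/KO day 4 (1.64 ± 0.53, adjusted p = 0.0133) and at WT day 4 plus VC (1.21 ± 0.47, adjusted p = 0.0336), the latter in 3 of 6 fits that left out a library. It averaged 1.2 CPM and overlaps Dctn5 (46.4 CPM), so its values are uncertain.

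**Figure D2:**
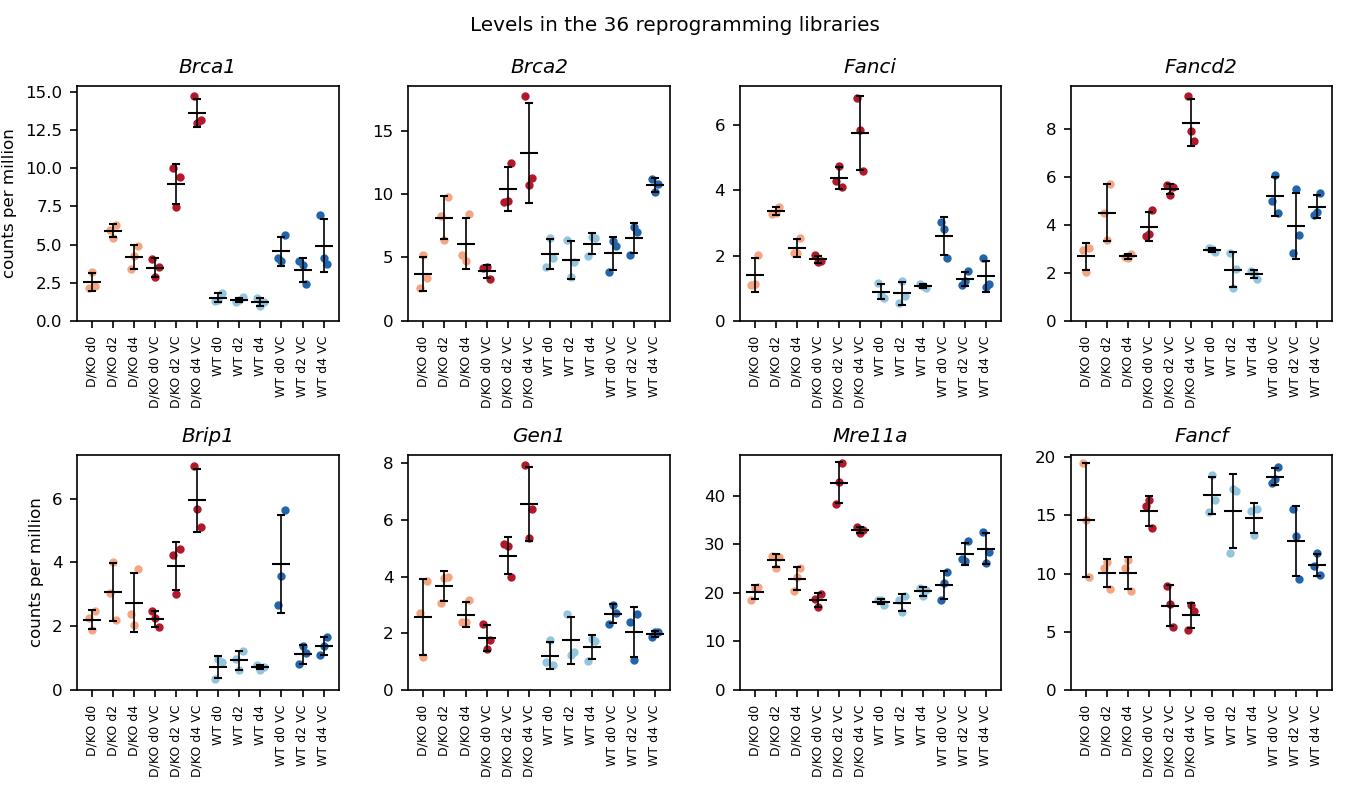
CPM of 8 genes in the 36 reprogramming libraries, 3 points per group with the mean and SD as bars; d is the day of doxycycline and the vertical axis is CPM. Brca1, Fanci, Fancd2, Brip1 and Gen1 are highest in D/KO day 4 plus VC, Mre11a in D/KO day 2 plus VC, and Fancf is lowest in D/KO day 4 plus VC.

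The paralogue family, which acts on single-stranded DNA in recombination, split. Rad51d rose in D/KO with VC from 12.6, 17.3 and 11.8 CPM to 25.4, 21 and 22.9 CPM at day 2 (0.73 ± 0.14, adjusted p = 2.96e-05) and 22.6, 22.4 and 18.3 CPM at day 4 (0.60 ± 0.14, adjusted p = 0.000311). Xrcc3 (ENSMUSG00000021287, GRCm39 chr12:111769626-111780307, minus strand) fell from 7.32, 5.05 and 8.00 CPM to 2.72, 1.42 and 2.91 CPM at day 2 (-1.53 ± 0.29, adjusted p = 4.59e-05) and 2.80, 3.85 and 3.32 CPM at day 4 (-1.03 ± 0.28, adjusted p = 0.00212). In WT the same gene rose, from 5.81, 6.76 and 3.19 CPM to 9.65, 13.1 and 8.23 CPM (0.97 ± 0.27, adjusted p = 0.00313). Klc1 overlaps Xrcc3 on the other strand at a mean of 134.7 CPM. At day 4 plus VC it had -0.17 in D/KO, not called, and rose by 0.56 in WT, so part of the Xrcc3 count is uncertain. Rad51c was called higher in D/KO at day 2 and at day 4 plus VC (0.75 and 0.60), in 2 and 1 of 6 fits that left out a library. Rad51b was called at D/KO day 4 alone of the 8 comparisons (1.11 ± 0.36, adjusted p = 0.014), lost without replicate 2 of day 0 (0.97, adjusted p = 0.0674) or of day 4 (0.76, adjusted p = 0.141). Xrcc2 was called in none of the 8, and its D/KO day 4 plus VC value was 0.25 ± 0.26.

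Rad54l and Rad54b, motor proteins that drive strand invasion, were called higher in D/KO day 4 plus VC, but at low counts. Rad54l read 1.49, 1.66 and 2.67 CPM in day 0 plus VC and 5.71, 4.85 and 2.79 CPM at day 4 (1.2 ± 0.42, adjusted p = 0.0149), a call lost without replicate 1 or 2 of day 0 plus VC or replicate 1 of day 4 plus VC (adjusted p = 0.0714, 0.0542 and 0.0757). Rad54b read 0.647, 0.301 and 0.842 CPM, then 1.90, 2.23 and 1.37 CPM (1.60 ± 0.66, adjusted p = 0.0382), a call kept in 2 of 6 such fits. Lrrc41 overlaps Rad54l on the other strand (48.9 CPM against 1.66 CPM) and Fsbp overlaps Rad54b on the same strand (0.404 CPM against 0.822 CPM), and with values of 0.16 and -1.18 neither was called, so the counts of Rad54l and Rad54b are uncertain. The annealing protein Rad52 rose in WT day 4 plus VC, from 10.8, 11.2 and 6.57 CPM to 15.8, 14.7 and 17.6 CPM (0.75 ± 0.18, adjusted p = 0.00103), while in D/KO its value was 0.00 ± 0.18.

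Of the 9 core and E2 genes, 2 rose and 1 fell in D/KO day 4 plus VC. Fancf (ENSMUSG00000092118, GRCm39 chr7:51510325-51512015, minus strand), a core adaptor subunit, fell from 15.8, 16.3 and 13.9 CPM to 5.18, 7.30 and 6.74 CPM (-1.26 ± 0.20, adjusted p = 2.65e-06), and in WT from 17.8, 18.1 and 19.1 CPM to 10.6, 11.7 and 9.84 CPM (-0.77 ± 0.20, adjusted p = 0.00155). No library of the later groups reached the earlier ones. It overlaps Gas2 on the other strand, which averaged 109.5 CPM against 12.7 CPM and fell by 3.76 and 1.71 in the same comparisons. The strand setting of the counting is not given in the sources used here, so reads of the pair may not be separated, and 21 of the 35 genes overlap exons of another gene. Fancf was also called lower in D/KO without VC (-0.54 at either day), and its value was -0.28 in both when replicate 1 of day 0, at 19.5 CPM, was left out. Fancg, a core subunit, rose in both lines, from 7.25, 7.61 and 7.30 to 11.2, 10.1 and 10.8 CPM in D/KO (0.54 ± 0.18, adjusted p = 0.014) and from 6.57, 8.6 and 8.63 to 13.0, 12.6 and 11 CPM in WT (0.62 ± 0.18, adjusted p = 0.00531). Fanca, a scaffold of the core, read 3.5, 2.94 and 4.00 CPM in D/KO day 0 plus VC and 6.13, 4.85 and 5.32 CPM at day 4 (0.64 ± 0.26, adjusted p = 0.0376, kept in 2 of 6 fits that left out a library). It fell in WT day 2 plus VC from 3.35, 3.75 and 2.79 CPM to 1.96, 1.32 and 0.851 CPM (-1.26 ± 0.29, adjusted p = 0.00102). Fancl, the ubiquitin ligase subunit, was called at D/KO day 2 plus VC (0.80 ± 0.24, adjusted p = 0.00554), lost without replicate 1 of day 0 plus VC (0.62, adjusted p = 0.0527). Fancc, Fancm and Ube2t were called in none of the 8 comparisons.

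Fancd2 and Fanci, the clamp that is ubiquitinated at crosslinks, rose in D/KO. Fanci (ENSMUSG00000039187, GRCm39 chr7:79041677-79100012, plus strand) went from 2.01, 1.81 and 1.82 CPM in day 0 plus VC to 4.28, 4.74 and 4.08 CPM at day 2 (1.21 ± 0.28, adjusted p = 0.000448) and 6.82, 5.85 and 4.58 CPM at day 4 (1.61 ± 0.28, adjusted p = 5.98e-06). In WT it fell from 3.03, 2.83 and 1.93 CPM to 1.10, 1.21 and 1.52 CPM at day 2 (-1.02 ± 0.29, adjusted p = 0.00769) and 1.92, 1.04 and 1.13 CPM at day 4 (-0.93 ± 0.29, adjusted p = 0.00864), the latter lost without replicate 2 of that group (-0.77, adjusted p = 0.0586). Fancd2 (ENSMUSG00000034023, GRCm39 chr6:113508643-113573978, plus strand) went from 3.56, 3.62 and 4.63 CPM to 9.41, 7.91 and 7.53 CPM in D/KO day 4 plus VC (1.07 ± 0.23, adjusted p = 0.000151) and had -0.12 ± 0.23 in WT. Brip1 (ENSMUSG00000034329, GRCm39 chr11:85948964-86092019, minus strand), the helicase that binds BRCA1, went from 2.46, 2.26 and 1.97 CPM to 7.03, 5.68 and 5.11 CPM in D/KO (1.41 ± 0.31, adjusted p = 0.000189). In WT it went the other way, from 2.65, 3.56 and 5.64 CPM to 1.10, 1.37 and 1.67 CPM (-1.51 ± 0.32, adjusted p = 0.000228). Emc3, Polg and Brip1os overlap these 3 genes on the other strand at 114.2, 42.6 and 54.6 CPM and had values of -0.48, -0.23 and -0.40 in D/KO, where Polg was not called (edgeR, adjusted p = 0.0998). In WT they had -0.58, 0.39 and -0.63, so Brip1os fell there together with Brip1, and the Brip1 fall in WT is uncertain. The nuclease gene Fan1 was called in none of the 8 comparisons.

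The choice of baseline bears on the WT falls. VC alone, at day 0, raised Brip1 in WT from 0.331, 0.967 and 0.868 CPM to the levels just given (2.43 ± 0.35, adjusted p = 1.01e-06) and Fanci from 1.16, 0.806 and 0.715 CPM (1.54 ± 0.30, adjusted p = 0.000158). Set against day 0 without VC, WT day 4 plus VC had 0.92 for Brip1 (adjusted p = 0.0456) and 0.60 for Fanci (adjusted p = 0.131), so Brip1 rose on this baseline, where it fell on the other, and Fanci was not called. Brca1, not called in WT above, rose (1.68, adjusted p = 1.12e-06), and the WT rises of Xrcc3 and Rad52 were lost (0.38 and 0.06, adjusted p = 0.248 and 0.822), as was the D/KO fall of Xrcc3 (-0.32, adjusted p = 0.364). On this baseline the members called numbered 12 higher and 2 lower (20.3% and 18.9% of all genes). In D/KO day 4 plus VC the same baseline gave 24 higher and 3 lower (26.6% and 25.5%).

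Of the 5 end resection genes, 4 rose in D/KO day 4 plus VC. Mre11a (ENSMUSG00000031928, GRCm39 chr9:14695950-14748419, plus strand), the nuclease of the complex, went in D/KO with VC from 18.6, 17.1 and 19.9 CPM to 38.4, 43.0 and 46.8 CPM at day 2 (1.21 ± 0.11, adjusted p = 4.44e-11) and 33.5, 32.4 and 33.1 CPM at day 4 (0.83 ± 0.11, adjusted p = 1.05e-07). In WT it went from 18.4, 22.0 and 24.2 CPM to 32.5, 26.2 and 28.5 CPM at day 4 (0.43 ± 0.11, adjusted p = 0.00197). Ankrd49, on the other strand at 11.6 CPM, changed by 1.11 and 0.60 in these day 4 comparisons, and the counts of the pair are uncertain. Rad50, the tether of the complex, was called at day 4 plus VC in D/KO (0.65 ± 0.18, adjusted p = 0.00199; 0.35 and adjusted p = 0.0803 without replicate 1 of that group) and in WT (0.51 ± 0.17, adjusted p = 0.0161; 0.43 and adjusted p = 0.0789 without replicate 1 of day 0 plus VC). Nbn, its signalling subunit, had 0.36 ± 0.15 (adjusted p = 0.0438, kept in 2 of 6 such fits) and 0.46 ± 0.15 (adjusted p = 0.0117, lost without WT day 0 plus VC replicate 3, adjusted p = 0.0525). Dna2, a nuclease of long-range resection, read 1.81, 0.452 and 1.33 CPM and then 3.28, 3.34 and 2.27 CPM in D/KO (1.28 ± 0.44, adjusted p = 0.0131; 0.91 and adjusted p = 0.0989 without replicate 2 of day 0 plus VC). Rbbp8 was called in none of the 8 comparisons, with 0.27 ± 0.20 in D/KO day 4 plus VC.

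Of the junction genes, the resolvase Gen1 and the helicase Blm rose and Mus81 fell. Gen1 (ENSMUSG00000051235, GRCm39 chr12:11288921-11315802, minus strand) went from 2.33, 1.43 and 1.75 CPM to 5.15, 5.09 and 3.97 CPM at D/KO day 2 plus VC (1.35 ± 0.35, adjusted p = 0.00145) and 7.93, 5.35 and 6.37 CPM at day 4 (1.82 ± 0.34, adjusted p = 2.55e-05). Smc6, which overlaps Gen1 on the other strand at 69.2 CPM against 2.77 CPM, had -0.12 and -0.07 in these comparisons and was not called. Blm went from 3.82, 2.48 and 3.58 CPM to 7.51, 5.29 and 7.11 CPM at day 4 (1.00 ± 0.30, adjusted p = 0.00536). Mus81, the nuclease that works with EME1, was called lower at day 4 plus VC in D/KO (-0.38 ± 0.13, adjusted p = 0.0161) and WT (-0.39 ± 0.13, adjusted p = 0.0147), lost without replicate 1 of the D/KO group (adjusted p = 0.0956) or replicate 2 of the WT group (adjusted p = 0.0742). Efemp2 overlaps it at 895.1 CPM, against 11.7 CPM, and fell by 2.48 and 1.82, so the Mus81 values are uncertain. Eme1 fell in WT with VC at day 2 and day 4 (-1.54 and -1.70), in 2 and 3 of 6 fits that left out a library, and Lrrc59, which overlaps it at 214.0 CPM against 0.764 CPM, changed by -0.73 at day 4. Polq, the polymerase of end joining at short homologies, read 1.42, 0.904 and 1.40 CPM and then 5.29, 2.34 and 2.42 CPM in D/KO day 4 plus VC (1.42 ± 0.44, adjusted p = 0.00708). Without the library at 5.29 CPM, replicate 1, its value was 0.94 (adjusted p = 0.107).

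**Figure D3:**
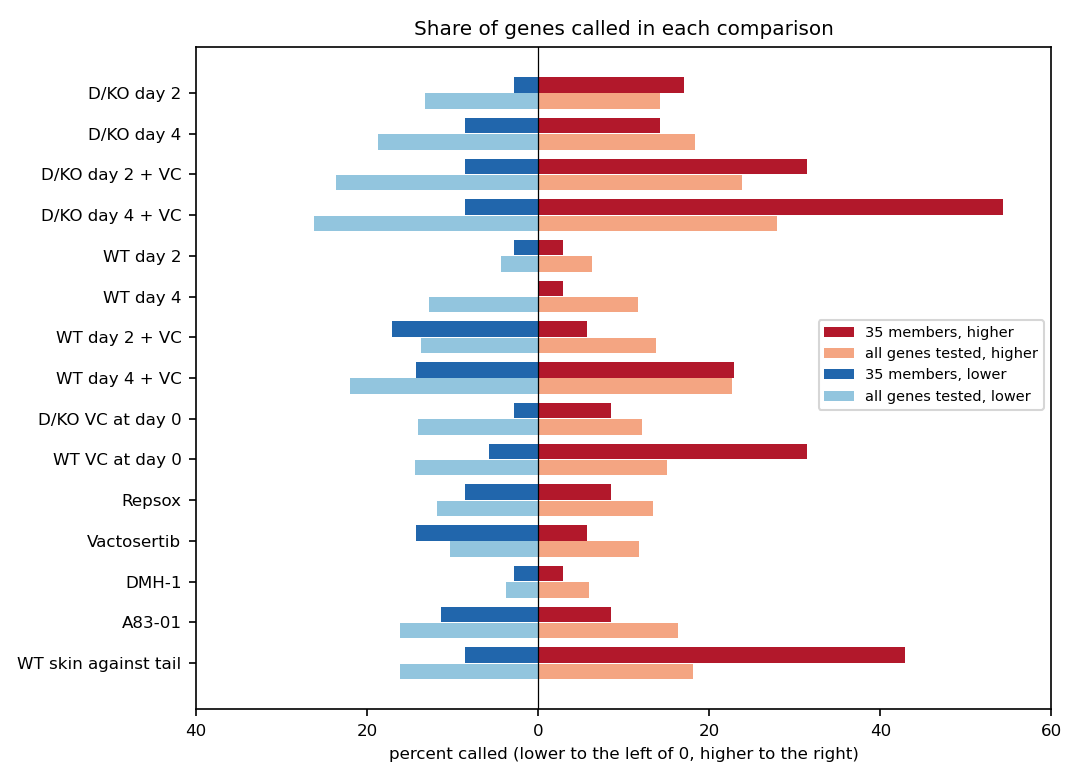
Percent of the 35 genes (dark bars) and of all genes tested (light bars below) called higher (right of 0) or lower (left of 0) in 15 comparisons. In D/KO day 4 plus VC 54.3% of the 35 rose against 27.9% of all genes, and in WT skin against tail 42.9% against 18.1%.

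Whether the lines differed was tested by subtracting the WT change from the D/KO change. With VC the answer depends on the baseline, and day 0 plus VC, the matching VC state, is given first. At day 4 plus VC, 11 of the 35 had a higher and 2 a lower change in D/KO (13.9% and 15.5% of all genes). Brip1 (2.92 ± 0.45, adjusted p = 4.42e-06), Bard1 (2.75 ± 0.59, adjusted p = 0.000495), Fanci (2.54 ± 0.40, adjusted p = 7.28e-06), Gen1 (2.26 ± 0.49, adjusted p = 0.000532), Brca1 (1.85 ± 0.32, adjusted p = 3.32e-05), Fancd2 (1.2 ± 0.32, adjusted p = 0.00471) and Xrcc3 (-2.0 ± 0.39, adjusted p = 0.000138) kept their call in each of 12 fits that left out a library. Rad54l, Rad54b, Fanca, Eme1, Polq and Rad52 (-0.75) lost it in at least 1 such fit. Against day 0 without VC in both lines, a baseline chosen after seeing the data, 3 were higher and none lower at day 4 plus VC (9.42% and 11.4% of all genes; 7 and 0 at an unadjusted p under 0.05 in edgeR; DESeq2 was not run), which is near the background. These were Bard1 (1.97 ± 0.57, adjusted p = 0.0117), Fanci (1.42 ± 0.43, adjusted p = 0.0142) and Fancd2 (0.94 ± 0.33, adjusted p = 0.0402). Brip1 (0.50 ± 0.49, adjusted p = 0.525), Brca1 (0.73 ± 0.34, adjusted p = 0.135), Gen1 (0.64 ± 0.50, adjusted p = 0.405) and Xrcc3 (-0.70 ± 0.39, adjusted p = 0.207) were not called on it. VC alone at day 0 had moved the first 3 of these by 2.43, 1.57 and 1.15 in WT, each called, and by 0.02, 0.45 and -0.47 in D/KO, none called. The lower calls numbered 1 in place of 2 without D/KO day 0 plus VC replicate 1, D/KO day 4 plus VC replicate 2, or replicate 3 of either WT group. At day 2 plus VC, 9 were higher and none lower (6.86% and 7%; 13 and 2 at an unadjusted p under 0.05 in edgeR; DESeq2 called 9 and 0), and Brca2, Blm and Gen1 lost the call in 7, 5 and 1 of 12 such fits. Against day 0 without VC, 5 were higher (Bard1, Brca2, Mre11a, Nbn and Palb2) and 1, Fancc, was lower at day 2 plus VC (8.74% and 11.6% of all genes). Without VC, 4 were higher and none lower at day 2 (3.43% and 3.11%; 8 and 2 unadjusted; DESeq2 4 and 0), and 1, Fancl, was higher and none lower at day 4 (7.27% and 7.04%; 3 and 4 unadjusted; DESeq2 1 and 1). At day 4 the higher calls numbered 0 without replicate 1 or 3 of D/KO day 0, replicate 2 of D/KO day 4, replicate 1 or 2 of WT day 0 or any replicate of WT day 4, and 2 without replicate 2 of D/KO day 0, and 1 was lower without the last or replicate 2 or 3 of D/KO day 4. The higher calls at day 2 numbered 1 or 2 when replicate 1 or 2 of D/KO day 0, replicate 3 of D/KO day 2, replicate 1 or 3 of WT day 0 or replicate 2 of WT day 2 was left out. Beside them, 28 of 38 S phase genes and all 26 G2 genes had a higher change in D/KO at day 4 plus VC, and 7 and 14 of them did against day 0 without VC. Their part was not tested.

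**Figure D4:**
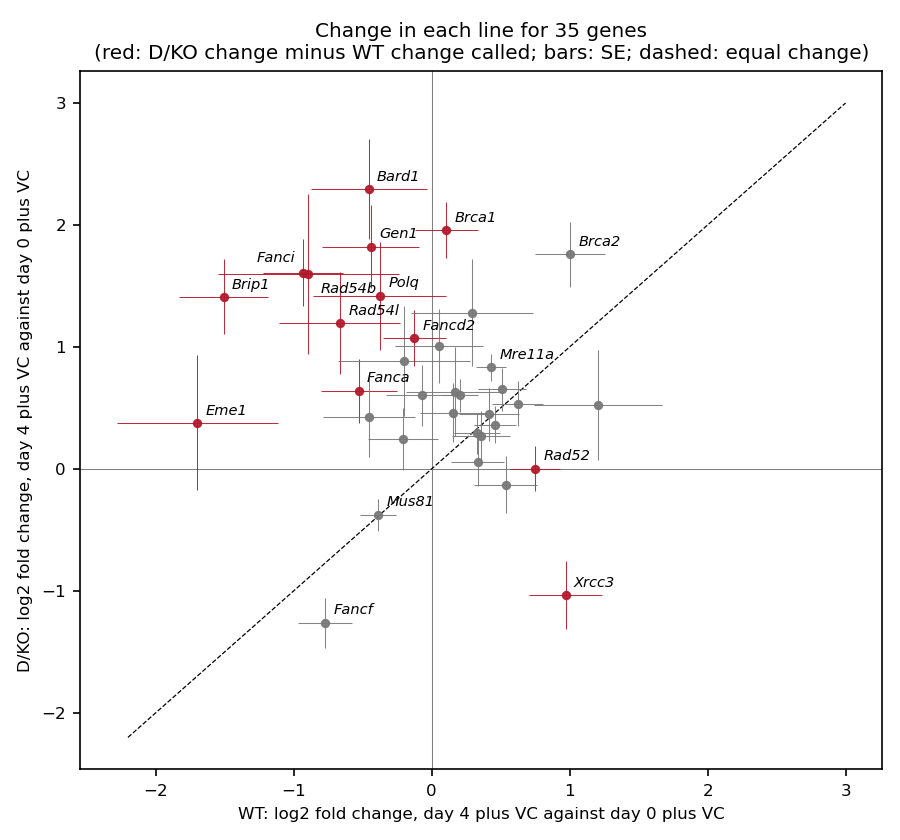
Log2 fold change of the 35 genes at day 4 plus VC in WT (horizontal axis) and D/KO (vertical axis), each against day 0 plus VC of the same line, with standard errors; the dashed line marks equal change. Red points, called in the difference between lines, lie above the line except Xrcc3 and Rad52.

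At day 4 plus VC against day 0 plus VC, 5 genes rose in both lines, namely Brca2, Fancg, Mre11a, Rad50 and Nbn, which is 5 of the 19 higher in D/KO and 5 of the 8 higher in WT. Of all genes, 12.9% rose in both, so 5 of 35 is near the background. Fancf and Mus81 fell in both (14.5% of all genes), and Xrcc3, Fanci and Brip1 were called in opposite directions (3.52% of all genes).

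VC was also compared with no VC at the same day. In D/KO it raised 3 and lowered 1 of the 35 at day 0 (12.1% and 14% of all genes), 4 and 1 at day 2 (11.1% and 14.2%), and 19 and 1 at day 4 (16.8% and 17.7%). At day 4 the median was 0.563 against 0.007 for all genes, with Dna2 (2.83 ± 0.48, adjusted p = 1.62e-05), Rad54l (2.17 ± 0.44, adjusted p = 0.000157) and Brca1 (1.71 ± 0.22, adjusted p = 1.22e-07) among the risers, and 33 of 38 S phase genes and 26 of 26 G2 genes rose too. In WT it raised 11 and lowered 2 at day 0 (15.1% and 14.4%), 5 and 2 at day 2 (13.5% and 13%), and 8 and 1 at day 4 (12% and 10.4%), with 28, 18 and 25 S phase genes and 26, 19 and 26 G2 genes higher. Brca1 was higher with VC in WT at each day (1.57, 1.28 and 2.00, each ± 0.25 or 0.26). The 11 called at WT day 0 numbered 5 without replicate 1 of day 0, and 7 or 6 without replicate 2 or 3 of day 0 plus VC, and the 8 at day 4 numbered 5 without replicate 1 of WT day 4. The 4 at D/KO day 2 numbered 1 or 2 without any replicate of D/KO day 2, or replicate 1 or 3 of D/KO day 2 plus VC. The 3 at D/KO day 0 numbered 5 without replicate 2 of day 0 plus VC, and the 5 at WT day 2 numbered 3 without replicate 2 of WT day 2 or replicate 2 or 3 of WT day 2 plus VC. Lower calls moved by 1 when single libraries were left out, over ranges of 0 to 1 and 1 to 2 in D/KO at day 0 and 2, 0 to 2 at day 4, and 1 to 2, 1 to 3 and 0 to 1 in WT at day 0, 2 and 4.

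Between day 2 and day 4 little was called. D/KO without VC had none higher and 1, Fancd2, lower (4.5% and 5.07% of all genes; 1 and 6 at an unadjusted p under 0.05 in edgeR, and 0 and 1 called by DESeq2). D/KO with VC had Brca1 and Bard1 higher and Mre11a lower (7.76% and 7.84%). WT without VC had Xrcc3, Fancb and Rad50 higher and Fance lower (9.25% and 12.3%), and WT with VC had Palb2, Brca2 and Xrcc3 higher and none lower (9.95% and 10.1%; none lower at an unadjusted p under 0.05 in edgeR or called by DESeq2). The Fancd2 call was lost without replicate 1 or 3 of D/KO day 2 or any replicate of D/KO day 4. With VC, 0 were higher in D/KO without replicate 2 of day 2, and 1 without replicate 3 of day 2 or any replicate of day 4, and the Mre11a call was lost without replicate 3 of day 2 or replicate 2 of day 4. In WT none was higher without replicate 2 of day 2 or replicate 2 or 3 of day 4, none was lower without replicate 2 or 3 of day 2 or any replicate of day 4, 2 were lower without replicate 1 of day 2, and with VC 1 was higher without replicate 2 of day 4.

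Before induction, D/KO and WT day 0 without VC differed in 9 of the 35 genes. Brip1 (1.59 ± 0.36), Gen1 (1.08 ± 0.37), Fanca (1.05 ± 0.29), Brca1 (0.74 ± 0.27) and Rbbp8 (0.53 ± 0.21) were higher in D/KO, against 22.1% of all genes. Xrcc3 (-0.93 ± 0.27), Rad52 (-0.86 ± 0.18), Nbn (-0.73 ± 0.15) and Fancm (-0.70 ± 0.22) were lower, against 21.1%. The 5 higher numbered 2 without replicate 1 of WT day 0 and 3 without replicate 2 of WT day 0 or replicate 2 or 3 of D/KO day 0, and 25 of 38 S phase and 25 of 26 G2 genes were higher as well.

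Genes of the same pathways that were not among the 35 gave 22 higher and 4 lower of 51 in D/KO day 4 plus VC, and 13 higher and 11 lower in WT. The WT counts and the D/KO falls are near or below the shares of all genes given above (27.9% and 26.2% in D/KO, 22.7% and 22% in WT). Usp1, which removes ubiquitin from FANCD2, rose from 24.3, 27.0 and 31.2 CPM to 222.0, 180.0 and 189.2 CPM in D/KO (2.84 ± 0.10, adjusted p = 1.18e-22) and from 33.9, 35.2 and 38.2 to 210.4, 204.3 and 218.8 CPM in WT (2.56 ± 0.10, adjusted p = 3.14e-21). Exo1, a resection exonuclease, rose in D/KO (2.56 ± 0.32, adjusted p = 1.28e-08) and fell in WT (-1.40 ± 0.33, adjusted p = 0.000649). The WT direction turns with the baseline: VC alone at day 0 raised Exo1 there from 0.608, 0.752 and 0.460 CPM to 2.84, 3.87 and 2.59 CPM (adjusted p = 2.91e-06), and against day 0 without VC it rose by day 4 plus VC in WT (0.94 ± 0.38, adjusted p = 0.0479) and in D/KO (1.99 ± 0.30, adjusted p = 7.15e-07). Fignl1, Rfwd3 and Mms22l rose in D/KO (1.43, 0.74 and 1.10), and had -0.34, 0.18 and -0.03 in WT with none called. Ercc1 fell in D/KO (-0.63 ± 0.17, adjusted p = 0.0021). The proliferation genes Pcna and Mki67 rose in D/KO (0.94 and 2.31) and had -0.16 and -0.28 in WT, where neither was called.

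The inhibitor experiment asked whether blocking TGFb signalling changes D/KO cells without the factors. Few of the 35 genes were called. Repsox raised 3 and lowered 3 (13.4% and 11.8% of 15164 genes), Vactosertib raised 2 and lowered 5 (11.8% and 10.3%), A83-01 raised 3 and lowered 4 (16.4% and 16.2%), and DMH-1 raised Rad51b and lowered Blm (5.96% and 3.79%). Of these shares of the 35, that of the Vactosertib falls alone was above the background (14.3% against 10.3%). Fitting only the groups compared gave 8 lower with Vactosertib and 9 with A83-01, above the background of that fit (15.6% and 20.9%). The same fit left 1 higher and 1 lower with Repsox. DESeq2 gave 3 higher and 3 lower with DMH-1, near the background (7.4% and 5.71%). The fit over all 24 libraries kept neither DMH-1 call. All 4 comparisons share the D/KO control libraries. Fibroblast markers summed to 72900 to 79230 CPM in controls, 32310 to 42010 with Repsox, 42590 to 46210 with Vactosertib, 36210 to 38450 with A83-01 and 62990 to 80860 with DMH-1. The collagens Col1a1, Col1a2 and Col3a1 fell with the 3 compounds that act on ALK5, while Dcn rose with all 4 compounds (0.63, 0.54, 0.90 and 0.54 in the same order). Endothelial markers summed to 290.0 to 339.0 CPM in controls, 121.5 to 162.7 CPM with A83-01 and 360.2 to 434.9 CPM with DMH-1, and the ranges with Repsox and Vactosertib overlapped the controls. These sums hide members that went both ways. Tek rose with Repsox, Vactosertib, A83-01 and DMH-1 (0.755, 0.711, 1.087 and 0.575). Tie1, Kdr, Pecam1 and Cdh5 fell with A83-01, and Tie1 also fell with Repsox (-0.37) and rose with DMH-1 (0.54). Keratinocyte markers summed to 3.96 to 6.26 CPM in controls and 12.4 to 13.8 CPM with A83-01. Among them Dsp rose with Repsox, Vactosertib and A83-01 (1.988, 1.798 and 2.389) and was not called with DMH-1. Krt10 had -0.716, -0.850 and -0.535 and Trp63 1.087, 0.949 and 1.045 with the same compounds, none called. Of the 3 immune markers tested, 1 (Adgre1) rose with each of the 3 compounds that act on ALK5 and none was called with DMH-1 (edgeR), and the macrophage gene Csf1r had 0.27, -0.25, -0.08 and -0.54 in the order Repsox, Vactosertib, A83-01 and DMH-1, none called. Of 2 melanocyte markers tested, 1, 1, 2 and 1 rose in that order, and the 1 muscle marker tested, Des, fell with Vactosertib, A83-01 and DMH-1 (-0.67, -0.78 and -0.82). The part of these markers in the results was not tested. The median changes of the 35 were -0.129, -0.226, -0.179 and -0.169 in the order Repsox, Vactosertib, A83-01 and DMH-1, against 0.02, 0.014, 0.003 and 0.003 for all genes. None of the 26 G2 genes rose with any of the 4 (edgeR, with an unadjusted p under 0.05 in 19, 24, 24 and 22 and medians of -0.735, -0.972, -1.741 and -0.783), and 15, 22, 24 and 12 fell. Their part was not tested. Lower calls for Vactosertib numbered 1 without its replicate 1 or 3, 2 without control replicate 3 and 3 without control replicate 2, and those for Repsox 1 without its replicate 2 or control replicate 3. For A83-01 they numbered 2 without control replicate 2 or 3, and its higher calls 1 without either of these or its own replicate 2 or 3. Higher calls for Vactosertib numbered 1 without control replicate 2 or 3 or its own replicate 3. Both DMH-1 calls were lost in at least 5 of 6 such fits, and 2 genes were higher without DMH-1 replicate 2.

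Fancc and Rbbp8 were among the genes called with each of the 3 compounds that act on ALK5. Fancc, a core subunit, read 9.92, 9.95 and 9.56 CPM in D/KO controls, 13.0, 16.9 and 14.7 CPM with Repsox (0.60 ± 0.13, adjusted p = 0.00225), 14.5, 12.9 and 14.6 CPM with Vactosertib (0.52 ± 0.13, adjusted p = 0.00724) and 15.8, 14.1 and 13.9 CPM with A83-01 (0.57 ± 0.13, adjusted p = 0.00236). With DMH-1 it read 12.1, 10.5 and 13.2 CPM (0.28 ± 0.13, adjusted p = 0.206). Every treated library was above the controls, and the called values stayed called in all 6 fits that left out a library. Aopep overlaps Fancc on the other strand at 34.1 CPM against 13.4 CPM. It had 0.36, 0.38 and 0.45 with Repsox, Vactosertib and A83-01 and 0.08 with DMH-1. None of these was called (edgeR, adjusted p = 0.0512 with A83-01), but the Fancc values are uncertain. Rbbp8, the resection cofactor CtIP, read 8.30, 10.4 and 7.79 CPM in controls, 4.99, 5.61 and 5.66 CPM with Repsox (-0.71 ± 0.14, adjusted p = 0.00115), 5.70, 6.13 and 5.17 CPM with Vactosertib (-0.63 ± 0.14, adjusted p = 0.00348) and 5.73, 5.92 and 6.99 CPM with A83-01 (-0.51 ± 0.14, adjusted p = 0.0089, at most 0.0679 in fits that left out a library). With DMH-1 it read 7.05, 6.38 and 6.48 CPM (-0.41 ± 0.14, adjusted p = 0.0741). Every treated library was below the controls.

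**Figure D5:**
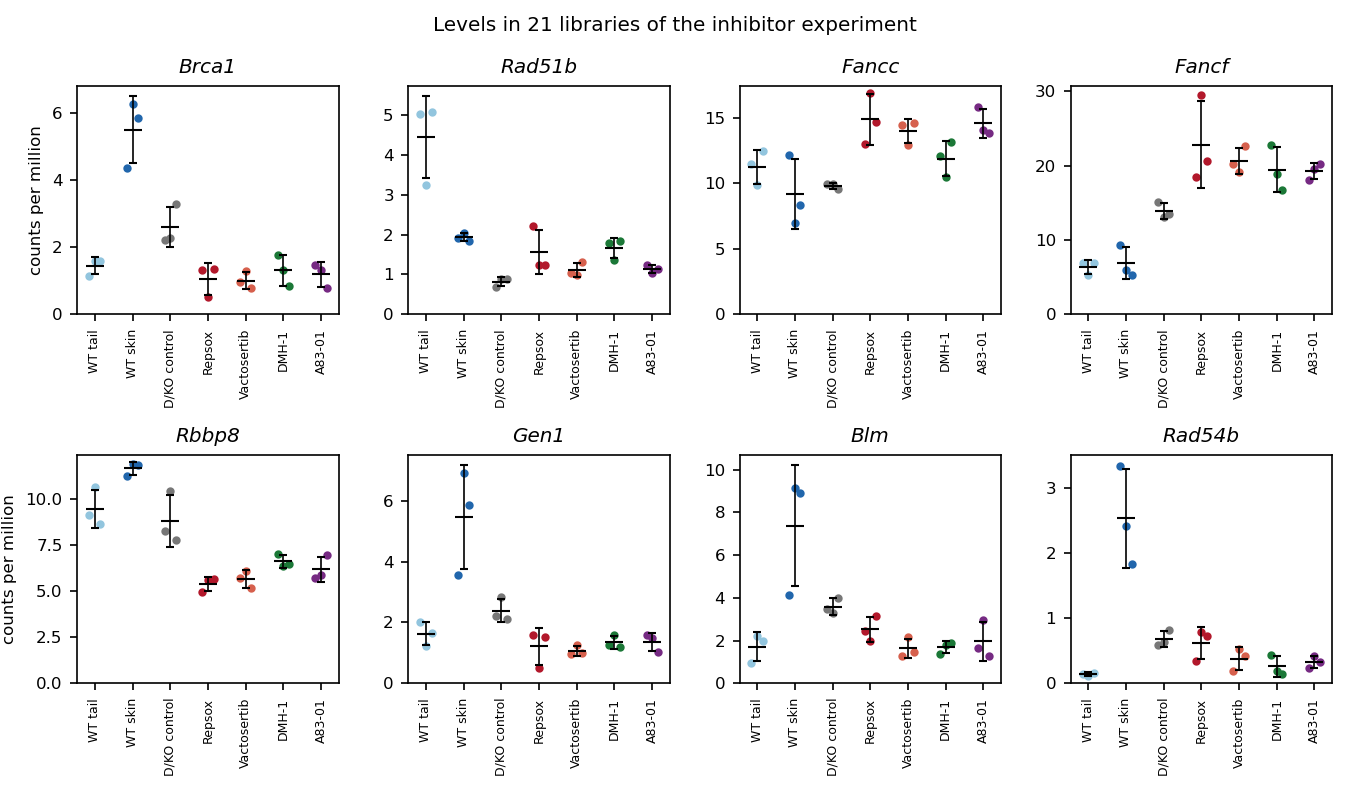
CPM of 8 genes in 21 libraries of the inhibitor experiment, 3 points per group with the mean and SD as bars. Fancc lies above and Rbbp8 below the D/KO control in each inhibitor group, and Brca1, Rad54b, Blm and Gen1 are highest in WT skin.

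Brca1 read 2.21, 2.29 and 3.31 CPM in controls and was called lower with Repsox (1.33, 0.518 and 1.35 CPM, -1.27 ± 0.36, adjusted p = 0.0146), Vactosertib (0.950, 1.29 and 0.783 CPM, -1.34 ± 0.37, adjusted p = 0.0141) and A83-01 (1.46, 1.34 and 0.776 CPM, -1.12 ± 0.36, adjusted p = 0.0224). With DMH-1 it had -0.95 ± 0.35 (adjusted p = 0.104). These calls were kept in 4, 3 and 4 of 6 fits that left out a library. Brip1 fell with A83-01 from 1.58, 2.34 and 2.07 CPM to 0.692, 0.534 and 0.554 CPM (-1.74 ± 0.42, adjusted p = 0.0044). Fancf read 15.1, 13.1 and 13.5 CPM in controls and rose with Repsox to 18.4, 29.5 and 20.6 CPM (0.72 ± 0.17, adjusted p = 0.00379), with Vactosertib (0.58 ± 0.17, adjusted p = 0.0173) and with A83-01 (0.47 ± 0.17, adjusted p = 0.0361), where Gas2, which overlaps it, changed by 1.36, 1.31 and 1.02. The last 2 Fancf calls were kept in 3 and 2 of 6 fits that left out a library. Gen1 with Repsox and Vactosertib (-0.97 and -1.15), Brca2 and Blm with Vactosertib (-0.90 and -1.11), Fanca with A83-01 (-1.23), Fance with A83-01 (0.40) and Rad51b with Repsox (0.94) were the other calls, each lost in at least 3 of 6 fits that left out a library. Smc6, which overlaps Gen1 on the other strand at 63.5 CPM against 1.58 CPM, fell in the same comparisons (-0.50 and -0.45), so the Gen1 values there are uncertain. Over the 8 reprogramming and these 4 comparisons, Xrcc2, Fancm, Ube2t and Fan1 were called in none.

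Compounds given at the same dose for the same time were compared directly in 2 pairs. A83-01 against DMH-1, both at 1 µM and acting on different receptors, gave 1 gene higher and 1 lower (11.9% and 13.4% of all genes). Xrcc3 read 4.81, 4.81 and 4.14 CPM with A83-01 and 1.79, 2.65 and 2.74 CPM with DMH-1, a log2 difference of 0.94 with a 95% interval of 0.41 to 1.47 (adjusted p = 0.0207 over both pairs), and was lost as a call without DMH-1 replicate 1. Ube2t differed by -1.28 (interval -2.19 to -0.37), with adjusted p = 0.0378 in this pair and 0.074 over both, and its call was lost without any single library of either group except A83-01 replicate 3. Repsox against Vactosertib, both acting on ALK5 and given at 0.1 µM, gave none in either direction (0% and 0% of all genes), with none of the 35 at an unadjusted p under 0.05 in edgeR and none called by DESeq2. The intervals of the 35 differences for that pair ran from -1.42 to 2.21 with bounds at 0.21 to 1.47 (median 0.64) from the estimate.

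Untreated D/KO tail cells were set against WT tail cells of the same experiment, which differ in age too. Rad54b (2.22 ± 0.52), Bard1 (1.43 ± 0.35), Fanci (1.38 ± 0.44), Rad51c (1.16 ± 0.33), Fancf (1.13 ± 0.17) and Blm (1.08 ± 0.34) were higher in D/KO, against 21.3% of all genes. Rad51b (-2.44 ± 0.28), Fancl (-0.49 ± 0.18) and Fance (-0.41 ± 0.14) were lower, against 18.9%, and 1 gene was lower without WT tail replicate 1 or 3 or D/KO control replicate 2. Rad51b read 0.681, 0.878 and 0.885 CPM in D/KO controls and 5.03, 3.25 and 5.07 CPM in WT tail (adjusted p = 2e-06), and the groups did not overlap. Of the G2 genes, 20 were higher and none lower (median 0.877).

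Within the WT controls, skin cells had 15 of the 35 genes higher and 3 lower than tail cells (18.1% and 16.1% of 15652 genes), and 15 and 4 without skin replicate 1, which stood apart. Rad54b read 3.35, 2.42 and 1.84 CPM in skin and 0.149, 0.116 and 0.165 CPM in tail, from counts of 4, 3 and 4 in tail (4.11 ± 0.48, adjusted p = 8.69e-07), and Fanci (2.66 ± 0.67), Bard1 (2.51 ± 0.37) and Polq (2.28 ± 0.57) followed. Brca1 was higher too (1.92 ± 0.32). Rad51b, Fance and Rad51d were lower (-1.2, -0.53 and -0.33). WT skin was the highest group of the experiment for 21 of the 35 genes, and the libraries labelled TGFB were the lowest for 17. G2 genes summed to 717.3 to 740.8 CPM in skin and 131.6 to 139.3 CPM in tail, with 26 of 26 higher, and 27 of 38 S phase genes were higher. The 5 skeletal muscle markers summed to 57.4 to 84.1 CPM in skin and 2.09 to 3.77 CPM in tail, with 2 and 3 of them at 0 counts, and the endothelial markers to 144.2 to 246.0 and 62.3 to 80.9 CPM. The part of these genes was not tested.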

How the data were processed

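RNA-seq counts per gene were used for 60 libraries of 20 groups. Per the study's methods and the submitters' processing notes, reads (150 bp, paired-end, NovaSeq) were checked with FastQC, trimmed with Trim Galore, aligned to GRCm39 with HISAT2 and counted with featureCounts of Subread. Versions and the strand setting are not given in the sources used here. The authors deposited raw counts, whole numbers per gene and not normalized, in 2 tables. The rule for the 35 genes reads no measured value, but the list of symbols, the other gene lists and the tests were chosen with earlier results of these data known.

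Genes passing filterByExpr (minimum count 10, minimum total 15) were scaled by TMM, with the tables scaled separately, and tested with the quasi-likelihood test of edgeR 4.0.16 (R 4.3.3), in 1 fit over 36 libraries, 1 over the 18 D/KO and WT tail libraries of the inhibitor experiment, and 1 over its 24 libraries for skin against tail. P-values were two-sided and adjusted over all genes tested (Benjamini-Hochberg). Differences between lines were interaction terms. The alternatives were DESeq2 1.42.0, its size factors, other filters, other sets of libraries, another baseline and leaving out each library. The scripts were tested on simulated data. Values per library were given, within each role, for the gene of smallest p in D/KO after 4 days with VC, the gene with the largest change in the reprogramming and inhibitor comparisons, and for Brca1, Brca2, Fancd2 and Fanca. Other values per library, and genes that overlap a member, were chosen after their values were seen. Of partner genes, the 5 with the smallest p there and Ercc1 were named, and 1 other is not reported here, with Pcna and Mki67 of the cell-cycle lists. Counts of 16538374 to 30599138 per library set the precision, and low genes rest on few reads.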

Additional observations from a re-analysis of the deposited data

Results flagged for a closer look

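The D/KO change less that in WT passed the test for the following genes (log2, edgeR interaction term, adjusted p under 0.05). At day 2 without VC it was 1.36 for Brca1, 1.25 for Brca2, 1.23 for Fancd2 and 2.47 for Polq, and at day 4 without VC 0.94 for Fancl. At day 2 with VC it was 1.80 for Brca1, 2.58 for Bard1, 1.12 for Brca2, 1.71 for Fanca, 2.23 for Fanci, 2.62 for Brip1, 0.82 for Mre11a, 1.49 for Blm and 1.76 for Gen1. At day 4 with VC it was 1.85 for Brca1, 2.75 for Bard1, -2.0 for Xrcc3, 1.86 for Rad54l, 2.49 for Rad54b, -0.75 for Rad52, 1.17 for Fanca, 1.2 for Fancd2, 2.54 for Fanci, 2.92 for Brip1, 2.07 for Eme1, 2.26 for Gen1 and 1.79 for Polq. The values with VC rest on day 0 plus VC as baseline. Against day 0 without VC, a baseline chosen after seeing the data, Bard1, Brca2 and Mre11a of these genes passed at day 2 plus VC (1.80, 1.16 and 0.46) and Bard1, Fanci and Fancd2 at day 4 plus VC (1.97, 1.42 and 0.94). On it Brip1 had 0.21 and 0.50, Brca1 0.67 and 0.73 and Gen1 0.14 and 0.64 at day 2 and day 4, Xrcc3 -0.70 at day 4, and the direction turned for Rad52 (0.30), with none of these called. The calls without VC were each lost when at least 2 single libraries were left out. With VC, at least 1 such fit lost Brca2, Blm and Gen1 at day 2 and Rad54l, Rad54b, Rad52, Fanca, Eme1 and Polq at day 4. The lines differ in sex and age as well as in genotype, and these cannot be told apart.

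In the libraries labelled TGFB, which entered no test, 2 genes stood above all 6 WT control libraries. Rbbp8 averaged 13.52 CPM (14.4, 14.0 and 12.2 CPM) and Mus81 averaged 15.14 CPM (15, 16.1 and 14.3 CPM). The difference was not tested, since the WT control libraries are of another line.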

How the results depend on the processing

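No paired analysis was possible because the labels give no replicate numbers that link libraries of different groups. Counts are genes of the 35 called higher or lower. Alternatives for VC against no VC, day 4 against day 2, untreated D/KO against WT, inhibitor pairs and skin against tail were chosen after seeing the data. With DESeq2 size factors in edgeR, D/KO day 2 had 2 lower, WT day 2 plus VC 1 higher, D/KO minus WT at day 4 had 0 higher and D/KO day 4 minus day 2 had 0 lower. With DESeq2, D/KO day 2 had 2 lower, D/KO minus WT at day 4 had 1 lower, DMH-1 3 higher and 3 lower, and D/KO plus VC day 4 minus day 2 had 4 higher. With no filter, D/KO day 4 had 1 lower, WT day 4 2 higher, WT day 2 plus VC 1 higher, D/KO minus WT at day 4 0 higher and 1 lower, and DMH-1 0 higher. With at least 10 counts in every library, D/KO day 2 had 2 lower, WT day 2 0 lower, WT day 2 plus VC 3 lower, WT day 4 plus VC 3 lower, D/KO minus WT at day 4 plus VC 5 higher and DMH-1 2 lower. Fitting only the groups compared gave D/KO day 2 0 lower, D/KO day 4 2 higher and 0 lower, WT day 2 0 higher and 0 lower, WT day 4 3 higher, D/KO minus WT 1 higher at day 2, 0 higher and 1 lower at day 4 and 1 lower at day 4 plus VC, Repsox 1 higher and 1 lower, Vactosertib 8 lower, DMH-1 2 higher and 2 lower, and A83-01 9 lower. Fitting all 24 inhibitor libraries gave Vactosertib 1 higher and DMH-1 0 higher and 0 lower. The causes of these shifts were not tested.

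Against day 0 without VC, WT day 2 plus VC and WT day 4 plus VC had 2 lower each, and the direction turned for Fanci (0.52), Fanca (0.08), Brip1 (0.61) and Eme1 (0.28) at day 2 and for Fanci (0.60), Brip1 (0.92) and Eme1 (0.12) at day 4, where the baseline itself differs by VC. With the same baseline, applied to the differences between lines after seeing the data, D/KO minus WT had 5 higher and 1 lower at day 2 plus VC and 3 higher and 0 lower at day 4 plus VC. Of 22 values of named genes there, 6 kept their call, 15 lost it and Rad52 at day 4 turned to 0.30.

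When single libraries were left out, genes called higher and lower numbered 4 to 6 and 0 to 1 for D/KO day 2, 3 to 5 and 0 to 2 for D/KO day 4, 9 to 10 and 2 to 3 for D/KO day 2 plus VC, 12 to 19 and 2 to 3 for D/KO day 4 plus VC, 0 to 1 and 0 to 1 for WT day 2, 0 to 1 and 0 for WT day 4, 0 to 3 and 4 to 6 for WT day 2 plus VC, and 6 to 9 and 4 to 5 for WT day 4 plus VC. The numbers were 1 to 3 and 0 for D/KO minus WT at day 2, 0 to 2 and 0 to 1 for D/KO minus WT at day 4, 7 to 9 and 0 for D/KO minus WT at day 2 plus VC, 8 to 12 and 1 to 2 for D/KO minus WT at day 4 plus VC, 2 to 3 and 1 to 4 for Repsox, 1 to 2 and 1 to 5 for Vactosertib, 0 to 2 and 0 to 1 for DMH-1, and 1 to 2 and 2 to 5 for A83-01. The numbers were 2 to 5 and 0 to 1 for D/KO with against without VC at day 0, 1 to 4 and 1 to 2 for D/KO with against without VC at day 2, 16 to 20 and 0 to 2 for D/KO with against without VC at day 4, 5 to 9 and 1 to 2 for WT with against without VC at day 0, 3 to 5 and 1 to 3 for WT with against without VC at day 2, 5 to 8 and 0 to 1 for WT with against without VC at day 4, 0 and 0 to 1 for D/KO day 4 minus day 2, and 0 to 2 and 0 to 1 for D/KO day 4 minus day 2, both plus VC. The numbers were 0 to 2 and 0 to 2 for WT day 4 minus day 2, 1 to 3 and 0 for WT day 4 minus day 2, both plus VC, 2 to 6 and 3 to 5 for D/KO against WT day 0, 0 to 1 and 0 to 2 for A83-01 minus DMH-1, 0 and 0 for Repsox minus Vactosertib, 4 to 7 and 1 to 3 for D/KO against WT control, and 13 to 15 and 2 to 4 for skin against tail. No named gene reversed its direction in these fits, and DESeq2 kept the call of each named gene tested with it.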
